A study of Homo sapiens with 6 samples.

Results

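Basic helix-loop-helix (bHLH) transcription factors were followed in ARPE-19, a long-used cell line of human retinal pigment epithelium (RPE). The genes described are the protein-coding genes that the deposited table assigns to the bHLH family. Of the 101 such rows, 17 were left out by the rule, among them the E proteins TCF3 and TCF4, the pigment cell factor MITF and the inhibitors ID1 to ID4, which leaves 84 genes of 58735 in the table. The rule used family, biotype and those names. One group, labelled OE_CD51_ICD, holds 3 libraries of ARPE-19 cells that overexpress CD51-ICD. The other group, labelled NC, holds 3 libraries of ARPE-19 control cells, whose genotype is given as WT. CD51 is integrin alpha V, the product of ITGAV, and the name CD51-ICD denotes its intracellular domain. The vector, its promoter, the time after its introduction and the hour of harvest are not given in the labels. The labels do not say that the replicates were separate cultures, so the p-values below cover only the variation among these libraries, part or all of which may be technical.

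A bHLH protein binds DNA through a basic region and pairs with a partner through 2 helices joined by a loop. Most pairs read an E-box, written CANNTG with N for any base, and many of the leucine-zipper, clock and repressor members prefer its palindromic form CACGTG. Because binding needs a pair, the balance between partners matters: CLOCK pairs with ARNTL (BMAL1), the dioxin receptor AHR with ARNT, the glucose-responsive factor MLXIP (MondoA) with MLX, and the MYC and MXD proteins with MAX. In RPE, MITF and its relatives govern pigment cell genes, and the daily uptake of shed photoreceptor tips by RPE follows a circadian rhythm.

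The libraries held 15640428, 14620860 and 14577912 counts in OE_CD51_ICD and 16934668, 13616694 and 14728515 counts in NC. Mitochondrial genes took 3.60 to 4.07% of counts in OE_CD51_ICD and 3.86 to 5.07% in NC where replicate 3 held the highest share and the other two had 3.86 and 3.98%. ITGAV averaged 448 ± 83.5 CPM (counts scaled to library size and a normalization factor) in OE_CD51_ICD and 98.4 ± 12.9 CPM in NC (SD, n = 3 each, as for all later means). That is a log2 fold change of 2.18 ± 0.11 (SE). The summed level of 8 RPE markers was 4644 to 5375 CPM in OE_CD51_ICD and 5158 to 5613 CPM in NC and was carried by the keratins KRT8 and KRT18, while RPE65, the visual-cycle isomerase, had no count in any library. Of the other RPE markers, RLBP1 and PAX6 were higher in OE_CD51_ICD, with log2 fold changes of 0.81 and 0.59. OTX2 and SERPINF1 did not pass, with log2 fold changes of 0.06 and -0.11, nor did KRT8 and KRT18, with -0.10 and -0.09. BEST1 had 25 counts in OE_CD51_ICD and 34 in NC and was not tested. Summed markers of microglia reached 0.132 to 0.358 CPM in OE_CD51_ICD and 0 to 0.116 CPM in NC, those of fibroblasts 0.143 to 0.410 and 0 to 0.0708 CPM, and those of endothelium 0.132 to 0.547 and 0.81 to 1.42 CPM. Summed neuron markers, nearly all of it SYT1, reached 2.79 to 5.92 CPM in OE_CD51_ICD and 3.18 to 3.70 CPM in NC, and photoreceptor markers, mostly ARR3 with CRX at 0, reached 0.329 to 1.16 and 0.212 to 0.270 CPM. The part of these markers in the results below was not tested.

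Promoter sequence is shown for 4 genes named below. They are the paired repressors BHLHE40 and BHLHE41, which moved in opposite directions, ARRDC4, a target of MLXIP, and CYP1A1, a target of AHR. ARRDC4 does not stand for its list, since the windows of TXNIP and ARRDC3, described with it below, held no CACGTG. Each window holds 300 bases around the first start that RefSeq lists for the gene (build GRCh38.p14), read 5′ to 3′ on the gene's own strand. Capitals mark CACGTG in the first 3 sequences and GCGTG, the core read by AHR with ARNT, in the last. The windows are chr3:4979187-4979486 on the plus strand for BHLHE40, chr12:26124988-26125287 on the minus strand for BHLHE41, chr15:97960453-97960752 on the plus strand for ARRDC4 and chr15:74725479-74725778 on the minus strand for CYP1A1. Relative to the start, the first capital lies at -245 in BHLHE40, -48 in BHLHE41, -210 in ARRDC4 and -57 in CYP1A1.
BHLHE40: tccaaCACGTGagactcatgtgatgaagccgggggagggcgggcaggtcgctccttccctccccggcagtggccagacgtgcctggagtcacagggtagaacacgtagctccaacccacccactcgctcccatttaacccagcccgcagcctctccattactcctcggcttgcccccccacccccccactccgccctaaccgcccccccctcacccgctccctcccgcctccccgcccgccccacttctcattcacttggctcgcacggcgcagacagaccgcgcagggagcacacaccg
BHLHE41: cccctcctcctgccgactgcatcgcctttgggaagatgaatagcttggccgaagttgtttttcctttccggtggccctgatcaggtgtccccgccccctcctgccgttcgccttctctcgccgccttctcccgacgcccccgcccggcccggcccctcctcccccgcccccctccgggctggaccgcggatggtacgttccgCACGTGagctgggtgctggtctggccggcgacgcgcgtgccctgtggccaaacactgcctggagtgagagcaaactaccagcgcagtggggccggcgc
ARRDC4: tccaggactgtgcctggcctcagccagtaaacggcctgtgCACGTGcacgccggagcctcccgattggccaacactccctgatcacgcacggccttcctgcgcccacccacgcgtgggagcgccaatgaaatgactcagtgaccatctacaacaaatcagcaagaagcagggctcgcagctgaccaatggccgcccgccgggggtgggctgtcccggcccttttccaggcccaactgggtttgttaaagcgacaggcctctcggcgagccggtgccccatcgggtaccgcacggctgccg
CYP1A1: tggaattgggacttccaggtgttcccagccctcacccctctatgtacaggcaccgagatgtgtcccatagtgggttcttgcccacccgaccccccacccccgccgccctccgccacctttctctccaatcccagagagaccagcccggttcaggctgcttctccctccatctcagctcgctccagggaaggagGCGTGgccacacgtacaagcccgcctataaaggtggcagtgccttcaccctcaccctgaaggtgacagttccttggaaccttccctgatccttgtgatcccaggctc

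A RefSeq window was matched for 70 of the 84 bHLH genes. CACGTG, which reads the same on both strands and is one form of CANNTG, was found in 10 of these 70 windows (14.3%), against 7.43% of the first-listed windows of 27305 genes. CANNTG itself was in 68.9% of all windows, so its presence distinguishes little. Among the tested bHLH genes, CACGTG lay in 3 of 10 matched genes that were higher in OE_CD51_ICD, 3 of 8 that were lower and 1 of 6 that did not pass. Among matched bHLH genes not tested, it lay in 3 of 46 (6.52%). The 7.43% covers genes whether expressed or not, so it is no background for tested genes alone. The tested genes with CACGTG were AHR, TCF12, MNT, MXD4, MLX, BHLHE40 and BHLHE41. On either strand, GCGTG was in 36.3% and the hypoxia core ACGTG in 21.6% of all windows. These matches describe letters in a window and are not evidence of binding.

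Of the 84 bHLH genes, 34 had no count in any library, 50 had at least 1 count and 29 had enough counts to be tested, of which LYL1 and HEYL met the low-count filter only through OE_CD51_ICD. Among the 29, 12 were higher and 11 lower in OE_CD51_ICD than in NC at an adjusted p under 0.05, by edgeR's quasi-likelihood test with Benjamini-Hochberg adjustment over 13787 genes, and 6 did not pass. The test called 51.0% of all genes tested, 25.2% higher and 25.8% lower, against 79.3% of the 29, and the difference between these shares was not tested. Changes of at least 2-fold were called for 7 bHLH genes upward and 4 downward, against 6.89% and 5.83% of all tested genes. The median log2 fold change was 0.19 over the tested bHLH genes and 0.01 over all tested genes, and the median size of change without its sign was 0.57 and 0.38. The groups did not overlap in 24 of the 29, against 57.5% of all tested genes. The 24 include LYL1 and HEYL, which met the filter only through the group where they were higher. As RNA was taken from bulk cultures, fewer cells expressing a gene and less RNA per cell cannot be told apart in any of these values.

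**Figure D1:**
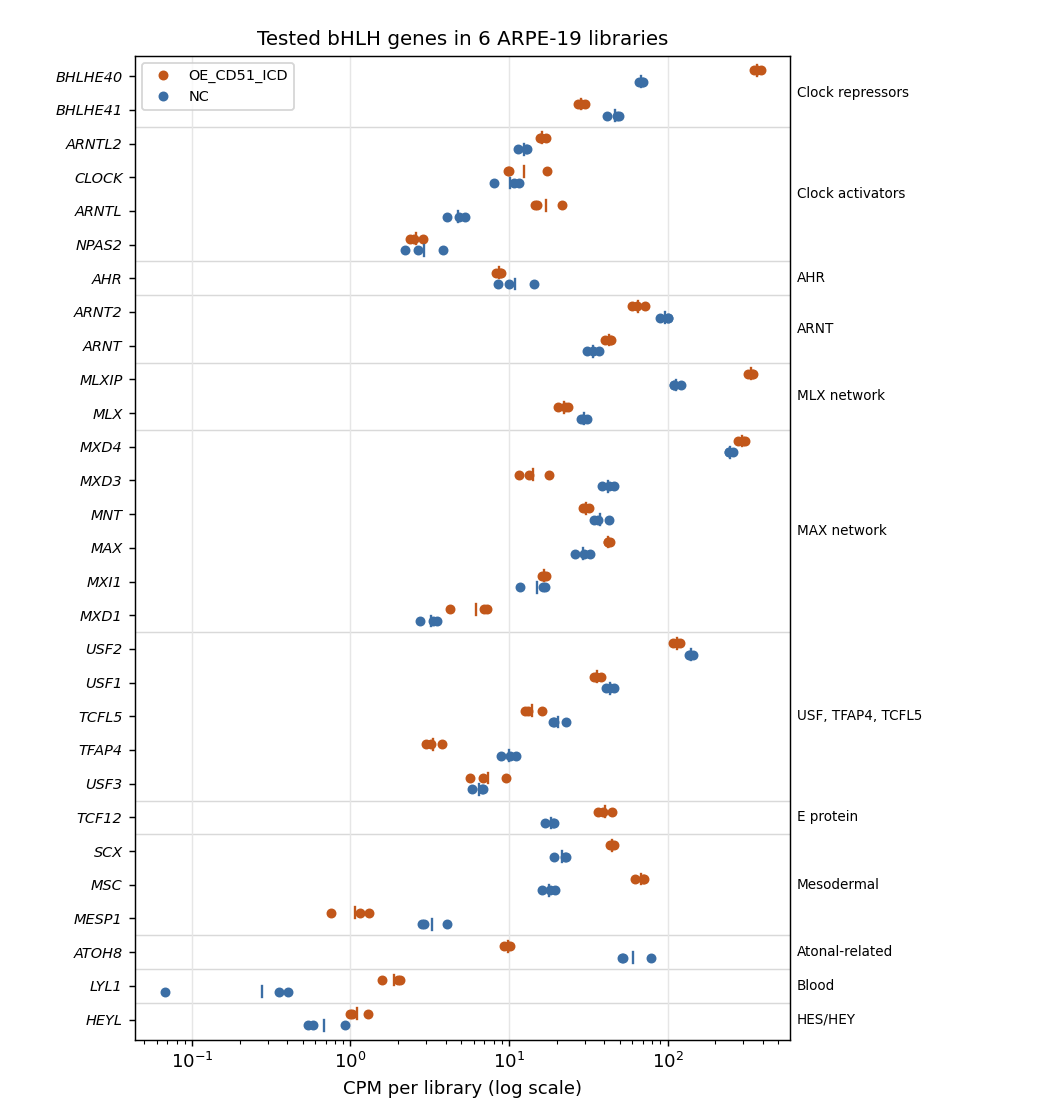
Levels of the 29 tested bHLH genes in each library, in CPM on a log axis, with OE_CD51_ICD in orange above NC in blue; points are libraries and vertical ticks are group means (n = 3). BHLHE40, MLXIP and MXD4 lie at the top of the range in OE_CD51_ICD, and ATOH8 shows the widest separation in the downward direction.

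**Figure D2:**
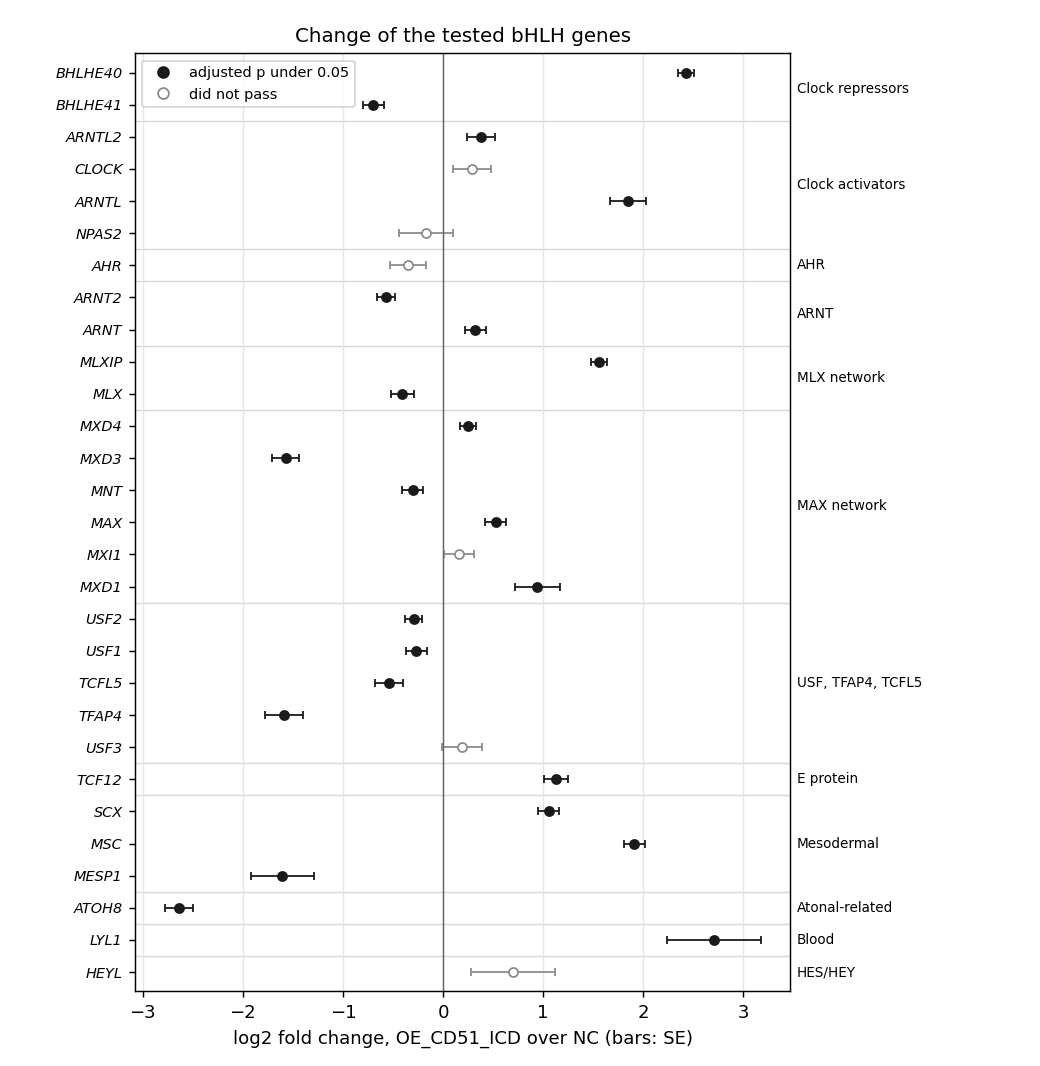
log2 fold change of OE_CD51_ICD over NC for the same 29 genes, with SE bars; filled points passed an adjusted p under 0.05 and open points did not. BHLHE40 at 2.43 and ATOH8 at -2.64 stand at opposite ends among the abundant genes, and LYL1 at 2.71 has the widest SE of the set.

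The clock repressors diverged. BHLHE40 (DEC1) and BHLHE41 (DEC2) are related repressors that bind CACGTG and oppose CLOCK with ARNTL, and BHLHE40 is also known as a hypoxia-inducible gene. BHLHE40 (chromosome 3, 4979116 to 4985323, GRCh38) had 386, 351 and 366 CPM in OE_CD51_ICD, against 70.2, 68.5 and 66.1 CPM in NC. The lowest OE_CD51_ICD library lay far above the highest NC library, and the level was 5.38-fold higher (log2 fold change 2.43 ± 0.08, adjusted p = 1.84e-20). BHLHE41 (chromosome 12, 26120026 to 26125127) had 28.6, 30.1 and 27.0 CPM in OE_CD51_ICD, against 41.5, 48.0 and 49.5 CPM in NC. Its groups did not overlap either, but it was lower (log2 fold change -0.70 ± 0.11, adjusted p = 2.27e-06). Of the bases in BHLHE41 exons, 4.10% are shared with SSPN, which was higher with a log2 fold change of 0.72. Without the use of strand being stated, reads there cannot be told apart.

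Among the clock activators, ARNTL rose and its partners CLOCK and NPAS2 did not pass. ARNTL (chromosome 11, 13276652 to 13387266) had 14.6, 21.5 and 15.0 CPM in OE_CD51_ICD, against 4.86, 5.31 and 4.06 CPM in NC. Every OE_CD51_ICD library was well above every NC library, a 3.59-fold difference (log2 fold change 1.84 ± 0.18, adjusted p = 6.86e-10). CLOCK, the partner of ARNTL and the one with the acetyltransferase activity, averaged 12.3 ± 4.28 CPM in OE_CD51_ICD and 10.1 ± 1.81 CPM in NC and did not pass (adjusted p = 0.209). OE_CD51_ICD replicate 2 was the high library for both genes, with 17.3 CPM of CLOCK against 9.81 and 9.94 CPM in the other two. NPAS2, which can replace CLOCK, averaged 2.59 ± 0.251 CPM in OE_CD51_ICD and 2.90 ± 0.855 CPM in NC (adjusted p = 0.631). ARNTL2, a paralog of ARNTL, averaged 16.2 ± 0.785 CPM in OE_CD51_ICD and 12.4 ± 0.927 CPM in NC (log2 fold change 0.38 ± 0.14, adjusted p = 0.0241). The ARNTL2 call was lost with the GC trend removed (log2 fold change 0.15, adjusted p = 0.3001), and also with adjusted p = 0.0802 with the gene length trend removed, 0.0653 on total-count scaling, 0.0508 without NC replicate 2, 0.0913 without NC replicate 3, 0.0512 without OE_CD51_ICD replicate 1 and 0.0556 without OE_CD51_ICD replicate 2.

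The other clock genes, partners and outputs that act with these factors, included 16 tested genes. Of these, 2 were higher, 3 lower and 11 did not pass, against 25.2% higher and 25.8% lower over all tested genes, and the median log2 fold change was -0.04. CRY1, a repressor of CLOCK with ARNTL, had 38.0, 39.5 and 31.2 CPM in OE_CD51_ICD, against 15.3, 17.6 and 13.5 CPM in NC (log2 fold change 1.23 ± 0.13, adjusted p = 2.09e-09). DBP, an output gene driven through E-boxes, had 9.22, 7.86 and 10.1 CPM in OE_CD51_ICD, against 17.6, 20.9 and 19.5 CPM in NC (log2 fold change -1.09 ± 0.15, adjusted p = 3.47e-07). In both genes the groups were apart. HLF, a relative of DBP named after its values were seen, had 3 counts over the OE_CD51_ICD libraries and 66 over the NC libraries, and it met the low-count filter only through NC, so no p is given for it, although it counts among the 3 lower. TEF, another relative, was lower by a small margin (log2 fold change -0.39, adjusted p = 0.00694), and that call was lost without OE_CD51_ICD replicate 2 (adjusted p = 0.0647). NR1D1, a nuclear receptor that represses ARNTL, was higher (log2 fold change 0.43, adjusted p = 0.00241). PER1, PER2, PER3 and CRY2, the remaining negative limb, had log2 fold changes of -0.35, -0.31, -0.20 and -0.17, and none passed. PER1 did pass as lower without OE_CD51_ICD replicate 3 (adjusted p = 0.0485), on total-count scaling (adjusted p = 0.0371) and with the gene length trend removed (adjusted p = 0.0186).

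AHR itself did not pass, while its best known target genes were the lowest of its list. AHR is a ligand-activated receptor for dioxins, tryptophan metabolites and related compounds. AHR (chromosome 7, 16916359 to 17346152) had 8.89, 8.75 and 8.30 CPM in OE_CD51_ICD, against 14.3, 8.50 and 10.003 CPM in NC. The groups overlapped, since NC replicate 2 lay within the OE_CD51_ICD range (log2 fold change -0.35 ± 0.18, adjusted p = 0.104). NC replicate 1 was the high library, and without it the log2 fold change was -0.10 (adjusted p = 0.688). AHR passed as lower without NC replicate 2 (log2 fold change -0.50, adjusted p = 0.0321), after removal of each library's trend with gene length (adjusted p = 0.0128) and after removal of the trend with GC content (adjusted p = 0.00493). Of the bases in AHR exons, 29.4% are shared on the same strand with AC019117.2, which had no count. How reads there were assigned is not known.

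Its obligate partner gene ARNT and the paralog ARNT2 moved in opposite directions. ARNT, which also pairs with the hypoxia factors, had 43.9, 43.5 and 40.1 CPM in OE_CD51_ICD, against 33.8, 31.1 and 37.1 CPM in NC (log2 fold change 0.32 ± 0.10, adjusted p = 0.0102). The ARNT call was lost without NC replicate 2 (adjusted p = 0.0866), without OE_CD51_ICD replicate 1 (adjusted p = 0.0530) and with the GC trend removed (adjusted p = 0.0570). ARNT2, a paralog prominent in neural tissue, had 64.6, 71.6 and 60.01 CPM in OE_CD51_ICD, against 89.8, 100.1 and 101 CPM in NC. The highest OE_CD51_ICD library was below the lowest NC library (log2 fold change -0.57 ± 0.09, adjusted p = 4.64e-06).

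Of 7 tested AHR chaperones and targets, 1 was higher and 5 lower, against 25.2% and 25.8% over all tested genes, with a median log2 fold change of -0.34. CYP1A1, a cytochrome P450 induced through AHR and shown above with 1 GCGTG core, had 0.922, 0.410 and 0.930 CPM in OE_CD51_ICD, against 8.56, 10.2 and 7.23 CPM in NC. It was 11.4-fold lower (log2 fold change -3.51 ± 0.28, adjusted p = 6.68e-12). CYP1B1, the related enzyme, had 0.987, 0.820 and 0.358 CPM in OE_CD51_ICD, against 7.35, 6.23 and 5.95 CPM in NC (log2 fold change -3.15 ± 0.29, adjusted p = 2.67e-10). The groups did not overlap in either gene. Both genes met the low-count filter only through NC, where they were high. With a filter on the mean over all 6 libraries, which does not use the groups, the log2 fold changes were -3.50 for CYP1A1 (adjusted p = 1.34e-11) and -3.14 for CYP1B1 (adjusted p = 4.83e-10). That cut is 1 CPM, which their OE_CD51_ICD means of 0.754 and 0.722 CPM alone would not reach. NQO1, a quinone reductase that answers to AHR and to NRF2, was lower (log2 fold change -0.92, adjusted p = 4.01e-11). TIPARP, an AHR target that feeds back on the receptor, went the other way, with 25.1, 21.7 and 20.3 CPM in OE_CD51_ICD and 15.2, 12.6 and 15.6 CPM in NC (adjusted p = 0.000271).

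A list of PAS-domain genes, their coactivators and repressor, and the MAX partner MGA, included 9 tested genes, of which 5 were higher and 2 lower, against 25.2% and 25.8% over all tested genes; MGA did not pass. HIF1A, the oxygen-regulated partner of ARNT, had 340, 409 and 284 CPM in OE_CD51_ICD, against 206, 161 and 145 CPM in NC (log2 fold change 1.01 ± 0.11, adjusted p = 6.48e-09). EPAS1 (HIF2A) had 112, 114 and 114 CPM in OE_CD51_ICD, against 94.1, 98.5 and 129.7 CPM in NC, and did not pass (adjusted p = 0.521). NC replicate 3 was its high library, and without it EPAS1 passed as higher (log2 fold change 0.23, adjusted p = 0.0385). The coactivator NCOA3 was higher (log2 fold change 0.91, adjusted p = 2.08e-06). AHRR, the repressor that competes with AHR for ARNT, had 1.32, 0.752 and 0.787 CPM in OE_CD51_ICD, against 4.05, 2.55 and 2.23 CPM in NC (log2 fold change -1.62 ± 0.34, adjusted p = 0.000194). Of 20 tested HIF regulators and targets, 13 were higher and 1 lower, against the same shares of all tested genes, 25.2% and 25.8%, with a median log2 fold change of 0.54. PFKFB4, which sets the level of a glycolytic activator, and KDM3A, a histone demethylase, were the largest called changes of that list, with log2 fold changes of 1.25 and 1.24. CA12, a carbonic anhydrase, was the one called lower (log2 fold change -0.85, adjusted p = 0.0133), a call lost without NC replicate 3 (adjusted p = 0.0724) or without OE_CD51_ICD replicate 1 (adjusted p = 0.0712).

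**Figure D3:**
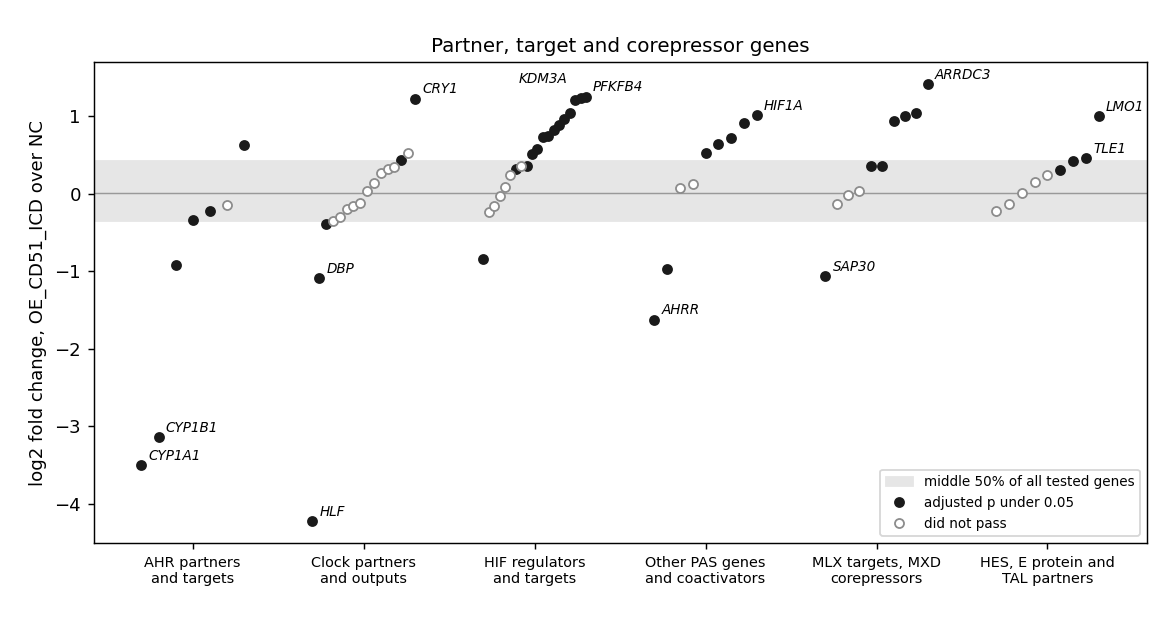
log2 fold change of OE_CD51_ICD over NC for the tested genes of 6 lists of partners, targets and corepressors, each point a gene, filled where the adjusted p was under 0.05; the grey band holds the middle 50% of all tested genes. CYP1A1 and CYP1B1 lie lowest in the AHR list, 13 of 20 HIF genes are filled above the line, and most clock genes are open; the value of HLF rests on 3 counts in OE_CD51_ICD.

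In the MLX network the sensor gene rose and its partner gene fell. MLXIP moves to the nucleus with MLX when glucose 6-phosphate accumulates and binds pairs of E-box-like elements. MLXIP (chromosome 12, 122078722 to 122147347) had 340.1, 321 and 345 CPM in OE_CD51_ICD, against 109, 110.1 and 122 CPM in NC. It was 2.95-fold higher, with a narrow spread in each group (log2 fold change 1.56 ± 0.08, adjusted p = 5.35e-16). Per gene length (FPKM), MLXIP had rank 5 among the bHLH genes in OE_CD51_ICD and rank 11 in NC. MLX had 20.5, 23.7 and 22.7 CPM in OE_CD51_ICD, against 29.2, 30.9 and 28.5 CPM in NC (log2 fold change -0.41 ± 0.11, adjusted p = 0.00372). The MLX call was lost without OE_CD51_ICD replicate 1 (adjusted p = 0.0521). MLX shares 18.1% of its exon bases with PSMC3IP, which was lower with a log2 fold change of -1.28, and reads from the shared bases cannot be told apart. MLXIPL (ChREBP), the liver and fat relative of MLXIP, had 1 count in OE_CD51_ICD and 1 in NC.

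Known targets of MLXIP were higher. TXNIP, an inhibitor of thioredoxin and of glucose uptake, had 42.4, 40.9 and 39.6 CPM in OE_CD51_ICD, against 14.9, 18.3 and 28.4 CPM in NC (log2 fold change 1.001 ± 0.15, adjusted p = 1.30e-06). NC replicate 3 was the highest of its group and still below every OE_CD51_ICD library. ARRDC4, the related arrestin whose window above holds a CACGTG, had 4.08, 4.03 and 3.36 CPM in OE_CD51_ICD, against 2.55, 1.20 and 2.16 CPM in NC (log2 fold change 0.94 ± 0.27, adjusted p = 0.00503). ARRDC3, another arrestin of the family, had the largest called change of the combined list of MLX targets and MXD corepressors (log2 fold change 1.41 ± 0.23, adjusted p = 7.87e-06). Of the 10 genes tested in that list, 6 were higher and 1 lower, against 25.2% and 25.8% over all tested genes. SAP30, a subunit of the SIN3 histone deacetylase complex, was lower (log2 fold change -1.07, adjusted p = 6.15e-09).

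The MAX network changed in both directions, with MAX, MXD1 and MXD4 higher and MXD3 and MNT lower. MAX is the shared partner; the MXD proteins, MXI1 and MNT pair with it and recruit SIN3 to repress E-box genes. MAX had 43.2, 41.9 and 41.8 CPM in OE_CD51_ICD, against 26.0, 29.7 and 32.6 CPM in NC (log2 fold change 0.52 ± 0.11, adjusted p = 0.000138). MXD3, which in mouse is transcribed in proliferating progenitors, had 13.3, 11.6 and 17.9 CPM in OE_CD51_ICD, against 42.5, 46.0 and 38.7 CPM in NC. The groups were well apart (log2 fold change -1.57 ± 0.13, adjusted p = 2.93e-11). MXD3 (chromosome 5, 177301461 to 177312757) shares 22.5% of its exon bases with PRELID1, on the opposite strand, and 18.0% with RAB24, on the same strand, whose log2 fold changes were -0.53 and 0.02. PRELID1 averaged 118 CPM in OE_CD51_ICD and 171 CPM in NC, and reads from the shared bases cannot be told apart.

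The abundant MXD4 and the scarce MXD1 were both higher. MXD4 had 299, 280.01 and 306 CPM in OE_CD51_ICD, against 244, 243 and 258 CPM in NC (log2 fold change 0.25 ± 0.08, adjusted p = 0.00807). This small difference lost its call without NC replicate 2 (adjusted p = 0.0513), without OE_CD51_ICD replicate 1 (adjusted p = 0.0524) and with the gene length trend removed (adjusted p = 0.140). MXD1, linked to differentiation, had 6.98, 7.31 and 4.22 CPM in OE_CD51_ICD, against 3.53, 2.76 and 3.31 CPM in NC (log2 fold change 0.94 ± 0.23, adjusted p = 0.000953). Its OE_CD51_ICD replicate 3 was low but above all NC libraries. MNT averaged 30.5 ± 1.27 CPM in OE_CD51_ICD and 37.6 ± 4.35 CPM in NC (log2 fold change -0.30 ± 0.11, adjusted p = 0.0204). That call was lost without OE_CD51_ICD replicate 1 (adjusted p = 0.108), without NC replicate 3 (adjusted p = 0.135) and with the GC trend removed (adjusted p = 0.482). MNT also did not pass by limma on log2(FPKM + 1) (adjusted p = 0.0658) or on log2(FPKM + 0.1) (adjusted p = 0.0594). MXI1 averaged 16.6 ± 0.446 CPM in OE_CD51_ICD and 15.0 ± 2.84 CPM in NC and did not pass (adjusted p = 0.382). MYCL had 8 counts in OE_CD51_ICD and 15 in NC and was not tested, and MYCN had none.

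The upstream stimulatory factors and related E-box readers were lower or did not pass. USF1 and USF2 are broadly expressed leucine-zipper factors that bind CACGTG as a pair. USF1 averaged 36.0 ± 1.92 CPM in OE_CD51_ICD and 43.3 ± 2.60 CPM in NC (log2 fold change -0.27 ± 0.10, adjusted p = 0.0284). USF2 averaged 114 ± 6.20 CPM in OE_CD51_ICD and 140.2 ± 4.38 CPM in NC (log2 fold change -0.30 ± 0.08, adjusted p = 0.00314). The USF1 call was lost when any one of 4 libraries was left out, with adjusted p = 0.0698 without NC replicate 2, 0.0995 without NC replicate 3, 0.162 without OE_CD51_ICD replicate 1 and 0.0771 without OE_CD51_ICD replicate 2. With the GC trend removed, neither USF1 (adjusted p = 0.0673) nor USF2 (adjusted p = 0.101) passed. USF1 also lost its call with the gene length trend removed (adjusted p = 0.165) and with no low-count filter (adjusted p = 0.0605). USF3 averaged 7.38 ± 2.05 CPM in OE_CD51_ICD and 6.49 ± 0.564 CPM in NC and did not pass (adjusted p = 0.438).

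TFAP4 and TCFL5 fell. TFAP4 (AP-4, chromosome 16, 4257186 to 4273075), which reads the E-box variant CAGCTG and promotes proliferation in several cancer lines, had 3.75, 3.01 and 3.22 CPM in OE_CD51_ICD, against 11.1, 8.92 and 10.1 CPM in NC. The groups did not overlap (log2 fold change -1.59 ± 0.19, adjusted p = 4.06e-08). TCFL5, first known from testis, had 13.2, 12.6 and 16.1 CPM in OE_CD51_ICD, against 18.8, 22.9 and 19.1 CPM in NC (log2 fold change -0.54 ± 0.14, adjusted p = 0.00197). TFEC, the MITF relative found in RPE and macrophages, had 1 count in OE_CD51_ICD and 2 in NC.

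TCF12 (HEB) was the one E protein kept by the rule. E proteins pair with tissue-restricted bHLH factors such as MSC, SCX, LYL1 and ATOH8. TCF12 (chromosome 15, 56918623 to 57299281) had 39.3, 44.9 and 36.2 CPM in OE_CD51_ICD, against 19.2, 19.0 and 16.9 CPM in NC. It was 2.19-fold higher (log2 fold change 1.13 ± 0.12, adjusted p = 1.95e-09). Among the 9 tested corepressors and partners of HES, E proteins and TAL1, 4 were called, all higher, against 51.0% called over all tested genes, with a median log2 fold change of 0.25 over the list, and among them were the Groucho-related TLE1 at a log2 fold change of 0.46 and the LIM-only partner of TAL1, LMO1, at 1.002. The LMO1 call was lost without NC replicate 3 (adjusted p = 0.0547).

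Tissue-restricted mesodermal factors were split. MSC (musculin), a repressor that opposes myogenic factors and lies on chromosome 8, had 70.1, 61.9 and 70.7 CPM in OE_CD51_ICD, against 19.4, 18.2 and 16.2 CPM in NC. Every OE_CD51_ICD library was above every NC library, a 3.76-fold difference (log2 fold change 1.91 ± 0.11, adjusted p = 3.18e-15). MSC shares 19.6% of its exon bases with the antisense gene MSC-AS1, which was also higher with a log2 fold change of 2.07, and reads from the shared bases cannot be told apart. SCX (scleraxis), a factor of tendon progenitors that drives type I collagen genes, also on chromosome 8, had 46.1, 43.5 and 44.7 CPM in OE_CD51_ICD, against 22.4, 22.9 and 19.3 CPM in NC. It was 2.08-fold higher (log2 fold change 1.05 ± 0.11, adjusted p = 1.92e-09). SCX lies within the span of BOP1 on the opposite strand with 0 shared exon bases, and BOP1 was lower with a log2 fold change of -1.05.

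MESP1, a factor of early cardiac mesoderm, went the other way. MESP1 (chromosome 15, 89748661 to 89751310) had 1.32, 0.752 and 1.14 CPM in OE_CD51_ICD, against 4.05, 2.83 and 2.91 CPM in NC (log2 fold change -1.61 ± 0.31, adjusted p = 7.79e-05). MESP2, a related factor of somite segmentation, had 0 counts over the OE_CD51_ICD libraries and 13 over the NC libraries. With 3 counts in place of 0 for OE_CD51_ICD, MESP2 was 4.11-fold lower there, and this was not tested. That value is no lower bound, since it takes the 13 NC counts, 8, 1 and 4 by library, as exact.

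ATOH8, an atonal-related factor, had the largest called fall of the 29 tested genes. ATOH8 (chromosome 2, 85751344 to 85788066) had 10.2, 9.84 and 9.30 CPM in OE_CD51_ICD, against 51.6, 52.7 and 78.5 CPM in NC. NC replicate 3 was high, and the groups were far apart in all libraries. It was 6.22-fold lower (log2 fold change -2.64 ± 0.14, adjusted p = 1.11e-15). Its other proneural and neurogenic relatives were not tested, and the ones most often seen were NHLH1, with 10 counts in OE_CD51_ICD and 13 in NC, and BHLHA15, with 21 and 22 counts.

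LYL1, a blood cell factor related to TAL1, had 1.58, 2.05 and 2.003 CPM in OE_CD51_ICD, against 0.405, 0.354 and 0.0676 CPM in NC. LYL1 (chromosome 19, 13099033 to 13103161) was 6.52-fold higher (log2 fold change 2.71 ± 0.47, adjusted p = 1.55e-05), resting on 82 counts in OE_CD51_ICD and 13 in NC. With a filter on the mean over all 6 libraries, which does not use the groups, its log2 fold change was the same to 2 decimals (adjusted p = 1.24e-05). That cut is 1 CPM, and LYL1 averaged 1.88 CPM in OE_CD51_ICD and 0.276 CPM in NC. OE_CD51_ICD therefore carried LYL1 past this filter as well. The microglia and macrophage markers, which include the pan-leukocyte gene PTPRC, stood at the low values given above, and their part in the LYL1 result was not tested. TAL1 itself had 1 count in OE_CD51_ICD and 4 in NC. HEYL, a HEY repressor known downstream of Notch, had 0.987, 1.03 and 1.29 CPM in OE_CD51_ICD, against 0.579, 0.920 and 0.541 CPM in NC. HEYL met the low-count filter only through OE_CD51_ICD, so no p is given for it, although it counts among the 6 that did not pass. HEY2 was seen mainly in OE_CD51_ICD, with 13 counts against 1 in NC, and was not tested.

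The 21 genes with counts but no test were all rare. SOHLH2, a germ cell factor, had 1 count in OE_CD51_ICD and 12 in NC, and it shares its locus with the read-through gene CCDC169-SOHLH2, with 1 and 4 counts. HES2 had 6 counts in each group, ASCL5 had 3 in OE_CD51_ICD and 4 in NC, and NEUROD2 had 2 and 3. The genes ATOH7, NEUROG2, TCF23, TCF24, HES7, SIM1, ASCL3 and TAL2 had 0 to 2 counts in either group. The 34 genes with no count in any library included the myogenic factors MYOD1, MYF5, MYF6 and MYOG, the hand factors HAND1 and HAND2, the oligodendrocyte lineage factors OLIG1 and OLIG2, and the proneural genes ATOH1, NEUROD1 and NEUROG1. Also without a count were ASCL2, ASCL4, BHLHA9, BHLHE22, BHLHE23, FERD3L, FIGLA, HELT, HES3, HES5, MSGN1, MYCN, NEUROD4, NEUROD6, NEUROG3, NHLH2, OLIG3, PTF1A, SOHLH1, TCF15, TCF21 and TWIST2. A count of 0 over a group allows up to 3 counts, for counting error only, so low expression of these genes was not detectable at this depth.

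Levels of different genes were compared per length, in the deposited FPKM, where BHLHE40 held the largest share of the family in OE_CD51_ICD. Summed FPKM over the 84 bHLH genes was 349, 326 and 349 in OE_CD51_ICD, against 217, 224 and 229 in NC. BHLHE40 took 28.6, 27.3 and 27.3% of that sum in OE_CD51_ICD and 8.34, 7.92 and 7.51% in NC. It was the most abundant member in every OE_CD51_ICD library, at 94.7 ± 5.44 FPKM, and had rank 5 in NC, at 17.7 ± 0.475 FPKM. MXD4 led in all NC libraries, with a mean of 34.9 FPKM, and had rank 3 in OE_CD51_ICD, with 41.3 FPKM. SCX had rank 2 in OE_CD51_ICD at 44.3 FPKM, which its spread did not separate from MXD4, and rank 3 in NC at 21.4 FPKM, not separated from USF1. MSC and MLXIP averaged 31.6 and 23.8 FPKM in OE_CD51_ICD, against 8.43 and 8.12 FPKM in NC.

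**Figure D4:**
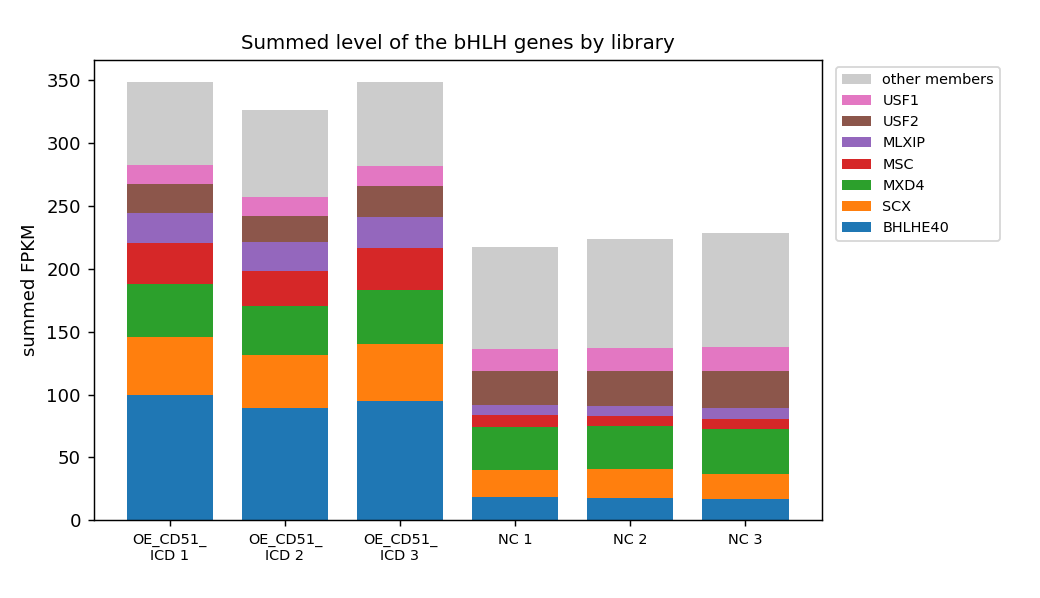
Summed FPKM of the 84 bHLH genes in each library, with the 7 most abundant genes as coloured segments and all others in grey; the 3 OE_CD51_ICD bars stand left of the 3 NC bars. The BHLHE40 segment at the base is 27.3 to 28.6% of each OE_CD51_ICD bar and 7.51 to 8.34% of each NC bar.

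Ratios of partner or paralog genes within a library do not depend on library scaling. The pairs were chosen after their values were seen, so the ratios are given without a test. The ratio of BHLHE40 to BHLHE41 in FPKM was 13.9, 11.97 and 13.9 in OE_CD51_ICD, against 1.74, 1.47 and 1.37 in NC. MLXIP stood at 5.09, 4.14 and 4.66 times MLX in OE_CD51_ICD, against 1.15, 1.09 and 1.31 times in NC. ARNTL exceeded CLOCK in every OE_CD51_ICD library, with ratios of 2.61, 2.17 and 2.64, and was below it in every NC library, with 0.738, 0.869 and 0.882. ARNT stayed below ARNT2 in all libraries, with ratios of 0.808, 0.722 and 0.794 in OE_CD51_ICD and 0.447, 0.370 and 0.435 in NC. USF2 to USF1 gave 1.50 ± 0.0592 in OE_CD51_ICD and 1.53 ± 0.0618 in NC, a difference smaller than the spread of either group.

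**Figure D5:**
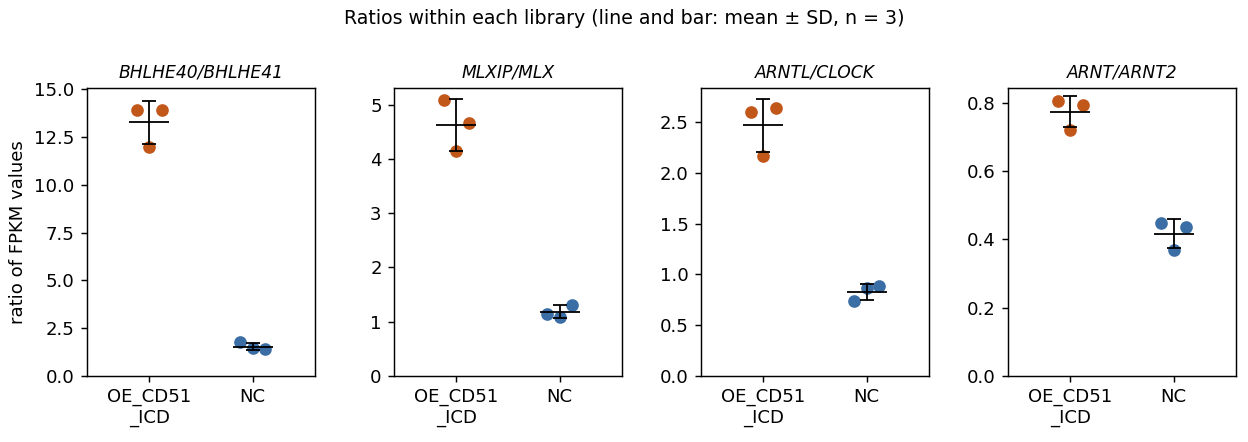
Ratio of FPKM values within each library for 4 pairs of bHLH genes, each panel on its own linear axis from 0, with OE_CD51_ICD left of NC; points are libraries and bars are the mean ± SD (n = 3). The groups do not overlap in any of the panels, with means of 13.3 and 1.53 for BHLHE40 to BHLHE41, 4.63 and 1.18 for MLXIP to MLX, 2.47 and 0.829 for ARNTL to CLOCK, and 0.775 and 0.417 for ARNT to ARNT2.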

How the data were processed

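The authors deposited whole-number gene counts and FPKM values for the same 6 libraries and 58735 genes. A SMARTER kit served for the mRNA libraries, per the labels' protocols, and hg38 is the build in the submitters' processing notes. Which aligner, counter and strand setting served is not given in the sources used. The deposited FPKM equal the counts divided by gene length and by a constant per library of 0.961 to 1.05 times its total count. All 84 bHLH coordinates match GENCODE 29.

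From the counts, low-count genes were removed with filterByExpr, libraries were scaled by TMM, and edgeR 4.0.16 in R 4.3.3 (glmQLFit, glmQLFTest, two-sided) compared OE_CD51_ICD with NC. Benjamini-Hochberg adjustment ran over 13787 genes, with calls at an adjusted p under 0.05. Each SE is the size of the log2 fold change divided by the root of its F statistic. Levels of 1 gene between groups are CPM, and levels between genes are FPKM. The alternatives were RLE and total-count scaling, DESeq2 1.42.0, other low-count filters, limma 3.58.1 on log2(FPKM + 1) and log2(FPKM + 0.1), each library left out, a replicate block, and loess removal of gene length or GC trends. The edgeR step was tested on simulated data. Promoter windows of 250 bases before to 50 after the first RefSeq start were searched on both strands.

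Members, lists, pairs and the naming rule were chosen with earlier results of these data known. The rule named called members, the 2 most abundant tested members of each role class, and the 2 largest called changes with a mean of at least 1 CPM in each partner list. Other partner genes were named after their values were seen. Some members and partner genes are not reported here.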

Additional observations from a re-analysis of the deposited data

How the results depend on the processing

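Over 16 alternatives, 9 to 12 of the tested bHLH genes were higher and 8 to 11 lower, against 12 and 11 as reported, with the lowest of both without OE_CD51_ICD replicate 1. Of the 23 called genes, 16 kept their call throughout, 7 lost it at least once and 0 changed direction; the cause was not tested. Counts of genes lower in the partner lists moved on small numbers. The clock list had 5 lower on total-count scaling and with the length trend removed, against 3. The HIF list had 3 on total-count scaling, 2 with the length or GC trend removed and 0 to 3 with 1 library left out, against 1. The MLX and MXD list had 2 on total-count scaling or length removal and 3 on GC removal, against 1. The HES and E protein list had 1 on length or GC removal and otherwise 0. Some uncalled log2 fold changes changed sign, with the ranges below over the libraries left out in turn. MXI1 ran from -0.00043 to 0.24 and was -0.030 on GC removal. USF3 ran from -0.034 to 0.35 and was -0.10 on length and -0.049 on GC removal. CLOCK ran from -0.018 to 0.44 and NPAS2 from -0.33 to 0.077. EPAS1 ran from -0.014 to 0.23 and was -0.032 on length removal. Same-numbered libraries did not deviate together (r = -0.05 to 0.05), and differently numbered ones gave r of -0.084 to 0.087. With 3 libraries in each group, this check cannot exclude that same-numbered libraries were handled as pairs. The replicate block gave 12 higher and 11 lower bHLH genes. Depth limits the 21 bHLH genes with counts but no test.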

Other observations

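Among 949 other tested genes that the table assigns to a transcription factor family, the bHLH genes left out by the rule included where tested, 266 were higher and 168 lower in OE_CD51_ICD than in NC by edgeR's quasi-likelihood test, which is 45.7% called, with a median log2 fold change of 0.18. The bHLH genes had 79.3% called and a median of 0.19. The difference between these shares was not tested.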
